A study of Mus musculus with 13 samples.

Results

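The genes described here are 10 cytosolic and mitochondrial heat shock chaperones and cochaperones: *Hspa8*, *Hsph1*, *Hspa4l*, *Hsp90aa1*, *Hspd1*, *Hspe1*, *Dnaja1*, *Dnajb1*, *Chordc1* and *Ahsa1*. They were chosen by name, with earlier results of these data known. Each was measured, and they are 10 of the 19938 genes tested. Primary mouse embryonic fibroblasts from a commercial source (Millipore), with no genetic change named, were grown at 37 °C in ordinary air with added CO2 and either moved to mild hypothermia at 32 °C or kept at normothermia, 37 °C. Affymetrix Mouse Gene 1.0 ST arrays measured 1 sample at 0 h (37 °C), which starts both courses, and 1 sample at each of 0.5, 1, 2, 4, 8 and 18 h at either temperature, 13 arrays in all. Each array holds the pooled RNA of 3 dishes. No condition has a replicate array, and precision is limited by how few arrays there are. As a model, the cultures are 1 preparation of bulk cells, in which a change in the make-up of the cells and a change in RNA per cell cannot be told apart. All 13 fibroblast markers checked had a mean above the median signal of all genes, against 1 of 7 macrophage, 0 of 5 endothelial, 2 of 5 epithelial, 2 of 5 neural and 2 of 5 skeletal muscle markers. The summed signal of the 13 fibroblast markers was 15.82 to 15.95 at 32 °C and 15.91 to 15.95 at 37 °C on the log2 scale. That of the 7 macrophage markers was 9.10 to 9.41 against 9.01 to 9.11, and that of the 5 neural markers 11.02 to 11.41 against 11.40 to 11.47, and their part in the results below was not tested.

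Heat shock proteins of the Hsp70 and Hsp90 families bind unfolded or partly folded proteins and release them in cycles of ATP hydrolysis. J proteins deliver clients to Hsp70 and stimulate its ATPase, Hsp110 proteins exchange its nucleotide, and cochaperones such as Ahsa1 act on the ATPase of Hsp90, while Hsp60 and Hsp10 form a folding chamber inside mitochondria. Many of these genes are induced by heat through heat shock factor 1, which binds DNA as a trimer at heat shock elements, inverted repeats of GAA and TTC, and cells keep a basal level of several of the chaperones without stress.

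Since such repeats are shared by several of these genes, the sequences are shown first. RefSeq promoter windows (GRCm38.p6, 250 bases before to 50 bases after an annotated start) matched 8 of the 10 genes, all but *Hspa8* and *Hsp90aa1*. The motifs searched, each on both strands, were GAANNTTC and TTCNNGAA, which hold a pair of facing units, and GAANNTTCNNGAA, which holds 3 units and contains both of the shorter ones. In the lines below, the capitals mark the GAA and TTC units in 30 bases around them, 5′ to 3′ on the strand of the gene, and positions count the start base as 1.
Chordc1, chr9:18292260-18292289, plus strand: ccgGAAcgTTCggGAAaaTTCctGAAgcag
Hspe1, chr1:55088053-55088082, plus strand: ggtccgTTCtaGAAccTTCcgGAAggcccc
Hsph1, chr5:149636279-149636308, minus strand: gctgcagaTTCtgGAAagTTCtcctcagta
Dnaja1, chr4:40722333-40722362, plus strand: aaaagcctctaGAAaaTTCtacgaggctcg

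*Chordc1* held 5 units in a row, from position -4 to 19 across its start. *Hspe1* held 4 units, from -89 to -72. The same bases, read on the other strand, lie from -144 to -127 of a start of *Hspd1*, the neighbouring gene that runs the opposite way. *Hsph1* held 3 units, from 16 to 28 of its second annotated start. *Dnaja1* held only a pair, from -124 to -117, and the windows of *Hspa4l*, *Dnajb1* and *Ahsa1* held none of the 3 motifs. The 3-unit motif was thus in windows of 4 of 8 members, and in 0.603% of all 32851 windows and 88 of 15614 tested genes (0.564%). Among the other genes of the lists described below that had a window, the cold-inducible RNA-binding protein list included, it was in 1 of 90, *Dnajb6*. The shorter motifs were common, GAANNTTC in 7.94% and TTCNNGAA in 8.75% of tested genes. A match is a description of these letters and not a site of binding.

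The question put to the arrays was which transcripts move with time under mild hypothermia and not at 37 °C. In the slopes with time at 32 °C, 0 members passed. Of the 10 genes, *Chordc1* and *Hsph1* passed the limma test as lower at 32 °C than at 37 °C at the late times. The late times were 4, 8 and 18 h. *Chordc1* differed by -0.68 ± 0.12 on the log2 scale (mean ± SD over the 3 late pairs of arrays), a level 0.626-fold of that at 37 °C. *Hsph1* differed by -0.52 ± 0.36 on the same scale, 0.699-fold. The means of the other 8 genes in the late pairs were also below 0, between -0.15 and -0.01, but none passed the test. Of these, *Hspa8*, *Hspa4l*, *Hsp90aa1*, *Hspd1* and *Ahsa1* were lower in each of the 3 late pairs, as *Chordc1* and *Hsph1* were. In the early pairs, at 0.5, 1 and 2 h, no member passed.

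**Figure D1:**
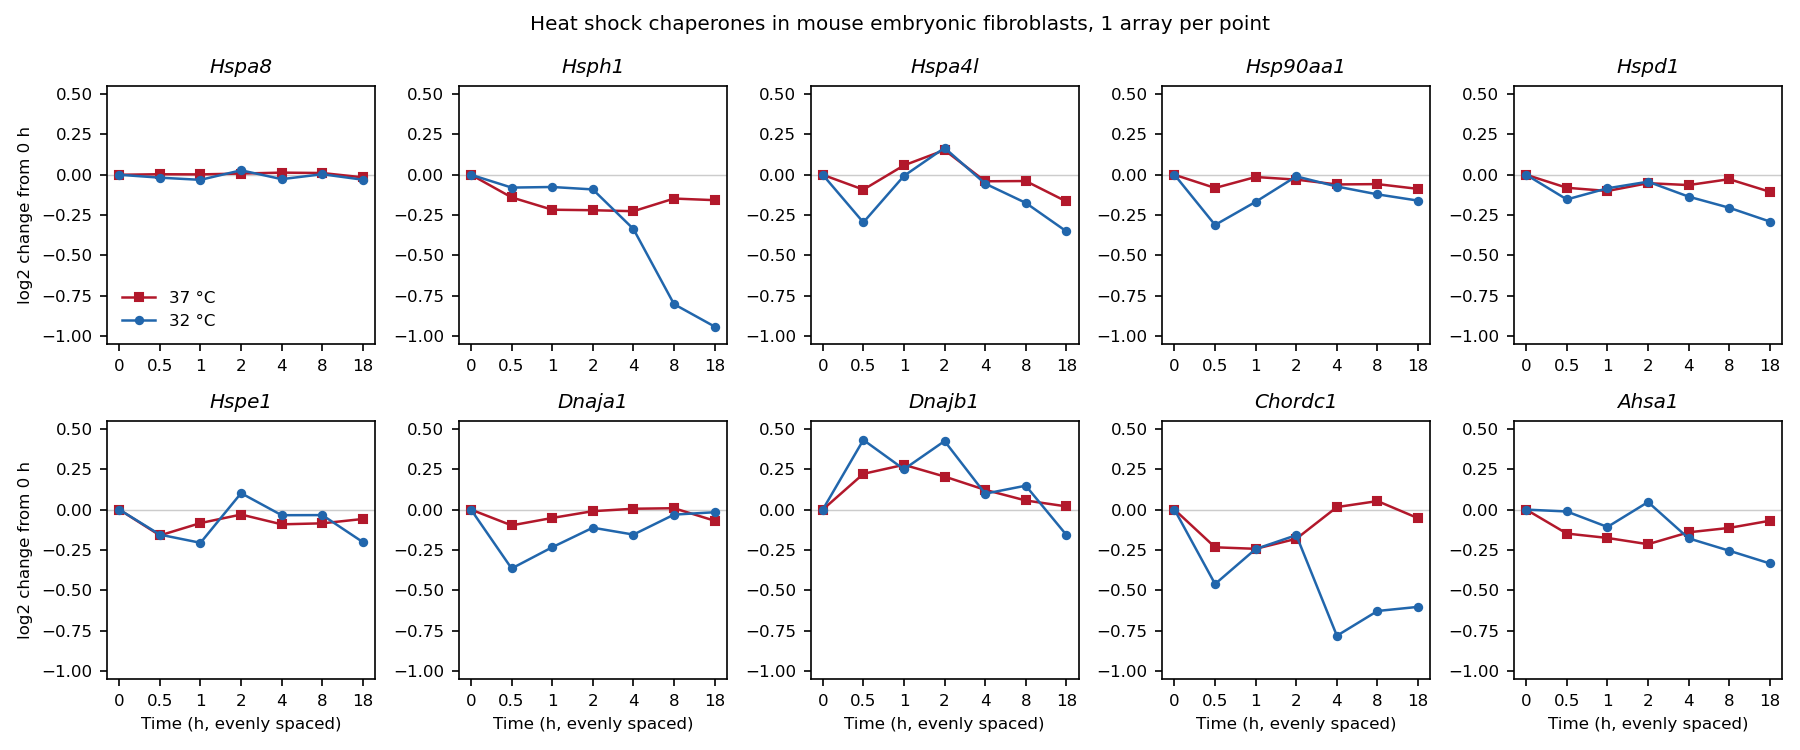
Change of the log2 value from the array at 0 h (vertical axis) for the 10 genes against time in hours, drawn at even steps (horizontal axis), with 1 array per point, blue circles for 32 °C and red squares for 37 °C. *Hsph1* at 32 °C ends at -0.94 and *Chordc1* at -0.60, while all 37 °C courses lie between -0.24 and 0.28.

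*Chordc1* encodes a zinc-binding protein with CHORD domains that works with Hsp90. At 37 °C its log2 values were 10.43 at 0 h, then 10.19, 10.18 and 10.24 at 0.5, 1 and 2 h, and 10.44, 10.48 and 10.37 at 4, 8 and 18 h. At 32 °C they were 9.96, 10.18 and 10.27 in the early samples and 9.64, 9.80 and 9.82 in the late ones. All 3 late samples at 32 °C lay below all 7 samples at 37 °C, whereas the early sample at 2 h lay within the range at 37 °C, that at 1 h at its lower edge and that at 0.5 h below it. The 32 °C minus 37 °C differences were -0.23, -0.00 and 0.02 in the early pairs and -0.80, -0.68 and -0.55 in the late ones. The gap was thus widest at 4 h, the first late time, and the level at 32 °C did not move lower after it. The late difference passed over all genes (limma, -0.68 with SE 0.07, adjusted p = 0.00713), and the early one did not (-0.07 with SE 0.07, adjusted p = 0.868). Without the pair at 8 h the late difference was -0.67, with an adjusted p of 0.0743.

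*Hsph1* encodes Hsp105, a cytosolic Hsp110 protein that exchanges the nucleotide of Hsp70. Its log2 values at 37 °C were 10.47 at 0 h and between 10.24 and 10.33 from 0.5 to 18 h. At 32 °C they were 10.39, 10.39 and 10.38 in the early samples and 10.13, 9.67 and 9.53 in the late ones. All 3 late samples at 32 °C were below all 7 samples at 37 °C, and the early samples were above those of the same time at 37 °C. The differences between pairs were 0.06, 0.14 and 0.13 early and -0.11, -0.65 and -0.78 late. In contrast to *Chordc1*, the gap grew from 4 to 18 h, and at 18 h the level at 32 °C was 0.521-fold of that at 0 h, against 0.897-fold at 37 °C. The late difference passed (limma, -0.52 with SE 0.11, adjusted p = 0.0421) and the early one did not (0.11 with SE 0.11, adjusted p = 0.857). Both SEs rest on 1 spread fitted to early and late pairs together, while the SD over the pairs was 0.04 early and 0.36 late. These outcomes thus do not weigh each phase by its own spread. The late call did not hold when the pair at 0.5, 1, 2, 8 or 18 h was left out (limma, adjusted p = 0.0659, 0.0741, 0.0693, 0.249 and 0.191), and the late difference lay between -0.72 (without 4 h) and -0.38 (without 18 h).

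In the late pairs, 2 members were called lower and 0 higher, and 2.95% of all tested genes were called, 160 of them higher and 428 lower. At an unadjusted p under 0.05 (limma) were 3 members and 3676 genes, or 18.4% of all genes. Leaving out the pair at 8 h left 0 genes called late by limma (2563 at an unadjusted p under 0.05), and leaving out that at 1, 4 or 18 h left 201, 362 and 67. The median of the 10 coefficients was -0.08 against 0.01 over all genes. All 10 were negative, and 46.5% of all genes were. Since the members were chosen with earlier results of these data known, this count is only a description. In the early pairs 0 members and 0.0% of all genes were called by limma (2 members and 1453 genes at an unadjusted p under 0.05), and the median of the members was -0.01 against 0.01. The change from early to late pairs, a comparison added after values had been seen, was called by limma for 0 members and 0.0% of genes (3 members and 2285 genes at an unadjusted p under 0.05). It was largest for *Hsph1* (-0.63 on the log2 scale, adjusted p = 0.216), *Chordc1* (-0.61, adjusted p = 0.142) and *Ahsa1* (-0.30, adjusted p = 0.297).

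**Figure D2:**
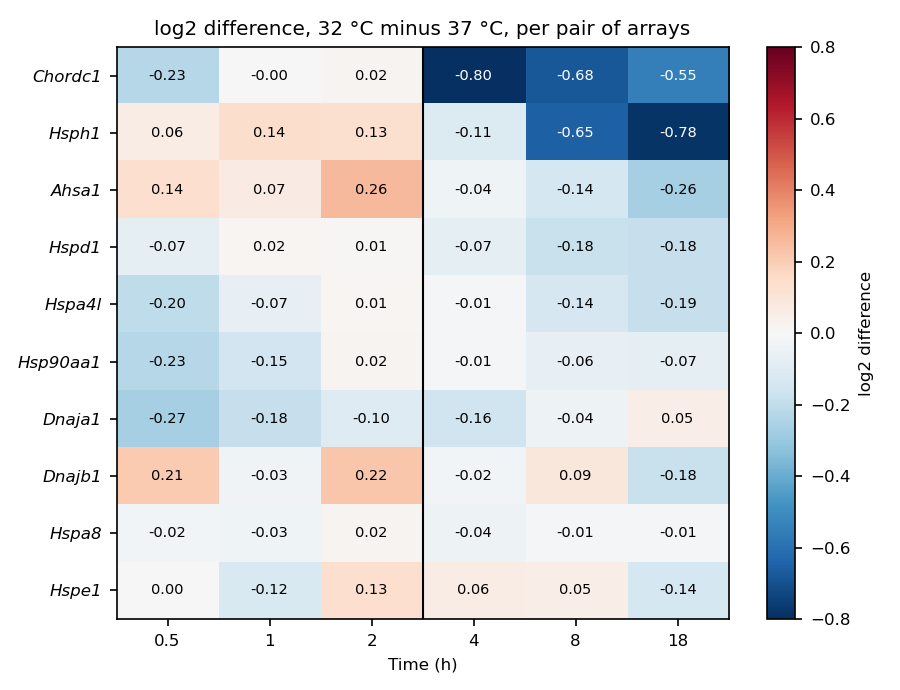
log2 difference, 32 °C minus 37 °C, for each gene (vertical axis) and pair of arrays by time in hours (horizontal axis), blue where lower and red where higher at 32 °C. The line parts early from late pairs, and the darkest cells are *Chordc1* at 4 h (-0.80) and *Hsph1* at 18 h (-0.78).

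The other Hsp110 gene among the members and the constitutive Hsp70 differed by less. *Hspa4l*, which also encodes an Hsp110 protein, had log2 values from 8.97 to 9.29 at 37 °C (median over the 7 samples 9.10) and from 8.79 to 9.30 at 32 °C, with the highest value at 2 h in both courses. Its samples at 0.5, 8 and 18 h at 32 °C lay below the whole range at 37 °C. Its pair differences were -0.20, -0.07 and 0.01 early and -0.01, -0.14 and -0.19 late (limma, late mean -0.11, adjusted p = 0.420). *Hspa8*, the constitutive cytosolic Hsp70, was the steadiest member: its 7 log2 values at 37 °C spanned 0.029, those at 32 °C 0.059, and no pair differed by more than 0.04 in size.

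Of the Hsp90 genes, *Hsp90aa1* encodes the stress-inducible cytosolic Hsp90. Its log2 values were 12.38 to 12.47 at 37 °C. At 32 °C they were 12.16 at 0.5 h, 12.30 at 1 h, 12.46 at 2 h, and 12.39, 12.34 and 12.31 late. Its largest difference was therefore in the first pair, -0.23, and the differences in the late pairs were -0.01, -0.06 and -0.07 (limma, early mean -0.12, adjusted p = 0.734, and late mean -0.05, adjusted p = 0.750). *Ahsa1* encodes the activator of the Hsp90 ATPase. Its log2 values were 10.14, 10.05 and 10.20 early and 9.98, 9.90 and 9.82 late at 32 °C, and 9.94 to 10.15 at 37 °C. Its pair differences were 0.14, 0.07 and 0.26 early and -0.04, -0.14 and -0.26 late, so that all early pairs were above 0 and all late pairs below it. Neither mean passed (limma, early 0.16, adjusted p = 0.683, and late -0.15, adjusted p = 0.292).

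The J proteins had differences of opposite sign in the first pair. *Dnaja1* had log2 values of 10.87, 11.00 and 11.12 early and 11.08, 11.20 and 11.22 late at 32 °C, against 11.13 to 11.24 at 37 °C, so that its samples from 0.5 to 4 h lay below the whole range at 37 °C. Its pair differences were -0.27, -0.18 and -0.10 early and -0.16, -0.04 and 0.05 late, and the early mean was the largest in size among the members (limma, -0.18 with SE 0.07, adjusted p = 0.634). *Dnajb1*, a cytosolic Hsp40, had log2 values of 9.69, 9.51 and 9.69 early and 9.36, 9.41 and 9.10 late at 32 °C, against 9.26 at 0 h and 9.28 to 9.54 later at 37 °C. The samples at 0.5 and 2 h at 32 °C lay above the range at 37 °C and that at 18 h below it. The pair differences were 0.21, -0.03 and 0.22 early and -0.02, 0.09 and -0.18 late, and neither mean passed (limma, adjusted p = 0.738 and 0.852).

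*Hspd1* and *Hspe1*, which encode mitochondrial Hsp60 and its lid Hsp10, lie head to head on chromosome 1. The log2 values of *Hspd1* were 11.94 to 12.05 at 37 °C, and 11.90, 11.97 and 12.01 early and 11.91, 11.85 and 11.76 late at 32 °C. Its late samples at 32 °C were below all samples at 37 °C, with pair differences of -0.07, -0.18 and -0.18 (limma, mean -0.14 with SE 0.06, adjusted p = 0.241). *Hspe1* had log2 values of 11.38 to 11.54 at 37 °C and 11.34 to 11.64 at 32 °C, and the ranges overlapped. Its late pairs differed by 0.06, 0.05 and -0.14 (limma, mean -0.01, adjusted p = 0.954).

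Time trends within each temperature were fitted as slopes of log2 values against the rank of the 7 times. At 32 °C, 0 members and 0.0953% of all genes (19 genes) passed by limma, and 4 members and 3287 genes had an unadjusted p under 0.05. The slopes of 9 of the 10 members were below 0, and the median slope was -0.03 log2 per time point against 0.005 over all genes. *Hsph1* had the steepest slope (-0.16 with SE 0.03, limma adjusted p = 0.0564), and its 7 values were almost in descending order (Kendall's tau -0.905, exact 2-sided p = 0.00278, adjusted over all genes 0.284). *Chordc1* (-0.10, adjusted p = 0.183), *Ahsa1* (-0.06, adjusted p = 0.158), *Dnajb1* (-0.04, adjusted p = 0.537) and *Hspd1* (-0.04, adjusted p = 0.282) followed. At 37 °C, 0 members and 0.0% of all genes passed by limma (0 members and 1156 genes at an unadjusted p under 0.05), and the slopes of the members were between -0.02 and 0.02 log2 per time point.

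The divergence of both courses from their common start was the slope of a line through the origin, fitted to the pair differences, in log2 units per time point. Here 1 member passed, and 2.83% of all genes did. *Chordc1* diverged by -0.11 per time point (SE 0.02, limma adjusted p = 0.0254), and *Hsph1* by -0.08 (SE 0.02, adjusted p = 0.0846). Without the pair at 0.5, 4, 8 or 18 h the adjusted p of *Chordc1* was 0.0520, 0.0691, 0.135 and 0.0832. The median of the 10 members was -0.016 against 0.002 over all genes, and 9 of 10 were below 0.

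By time, the median pair difference of the members was -0.05, -0.03 and 0.02 at 0.5, 1 and 2 h and -0.04, -0.10 and -0.18 at 4, 8 and 18 h, on the log2 scale. Below 0 were 6, 7 and 1 of 10 in the early pairs and 9, 8 and 9 of 10 in the late ones. The share of all genes below 0 was between 39.5% and 50.4% at each time. At 2 h the members were thus mostly higher at 32 °C, and at 18 h only *Dnaja1* was.

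A caution applies to 5 of the genes, since the array holds more than 1 transcript cluster, a set of probes summed to 1 value, for *Hspa8*, *Hsp90aa1*, *Hspd1*, *Hspe1* and *Dnaja1*. The brightest cluster, used here by rule, has identifier neighbours on other chromosomes in all 5 cases (0 or 1 of the 20 nearest lie on the chromosome of the gene). Another, dimmer cluster of each gene has 18 to 20 of its 19 or 20 neighbours on that chromosome. Probe positions were not used, so which cluster measures the gene was not determined. *Chordc1*, *Hsph1*, *Hspa4l*, *Dnajb1* and *Ahsa1* have 1 cluster each, with 19 or 20 neighbours on their own chromosome.

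The difference matters most for *Hspa8* and *Dnaja1*. The own-chromosome cluster of *Hspa8* was less steady, with log2 values of 12.46 to 12.59 at 37 °C and 12.30 to 12.54 at 32 °C, and its mean differences were -0.11 in the early pairs and -0.09 in the late ones (brightest cluster -0.01 and -0.02). That of *Dnaja1* gave -0.07 early and 0.08 late (brightest -0.18 and -0.05), so the direction of its late difference turned. For *Hspd1* the late difference was -0.19 (brightest -0.14), and for *Hsp90aa1* and *Hspe1* the own-chromosome and the brightest cluster were at most 0.02 apart in either mean. No own-chromosome cluster of these 5 genes passed the late test (limma, lowest adjusted p 0.171, *Hspd1*), and *Chordc1* and *Hsph1* were called as before (adjusted p = 0.00702 and 0.0415).

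**Figure D3:**
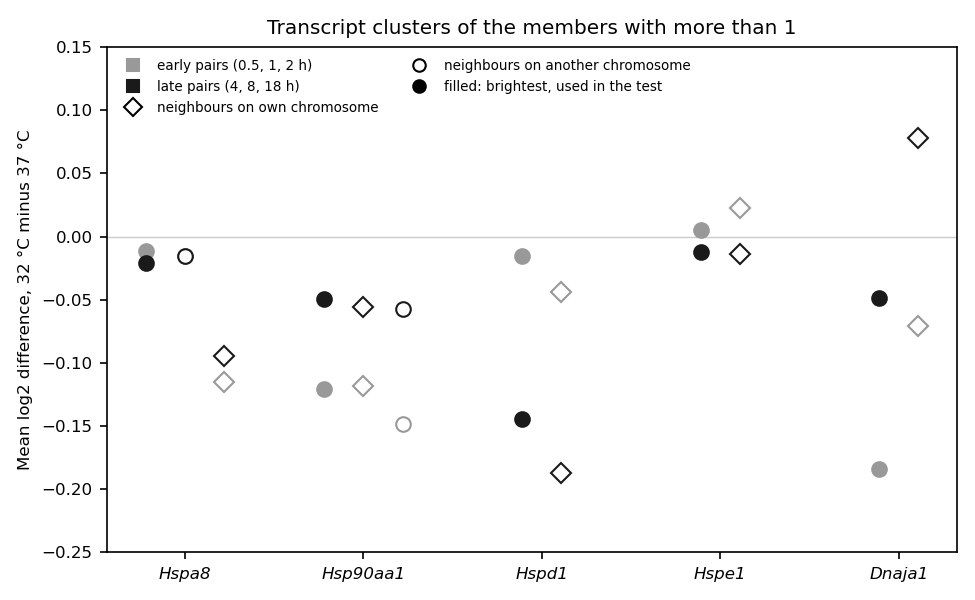
Mean log2 difference, 32 °C minus 37 °C (vertical axis), of each transcript cluster of the 5 genes with more than 1 (horizontal axis), in grey for the early and black for the late pairs. Diamonds are clusters with neighbours on the chromosome of the gene, circles those with neighbours elsewhere, and filled symbols the brightest cluster, and the late diamond of *Dnaja1* stands above 0 at 0.08.

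Over the 13 arrays the members varied partly together. Of the 45 pairs of members, 41 had a Pearson correlation above 0, with a median of 0.461. Against the mean of the other 9, *Hspd1* correlated most closely (r = 0.950) and *Dnaja1* least (r = 0.022). Relative to its average over the arrays, the mean log2 level of the members was 0.093 at 0 h, between 0.012 and 0.059 in the other samples at 37 °C, and -0.048, 0.003, 0.129, -0.074, -0.117 and -0.215 from 0.5 to 18 h at 32 °C. The sample at 2 h was thus the highest and that at 18 h the lowest of all. Of the 9959 genes with a signal above the median, those most like this mean over the 13 arrays were *Rpe* (r = 0.962), *Ell2* (0.953), *Zranb2* (0.941), *Ahsa2* (0.938) and *Cyb5r4* (0.935). These correlations share time and temperature on the same arrays and are given as descriptions.

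The other chaperone genes were counted by family. Of the further Hsp70 and Hsp110 genes, 0 of 8 passed in the late pairs by limma (2 at an unadjusted p under 0.05). The median was -0.08 on the log2 scale, equal to that of the members to 2 decimals, and the largest late coefficient was that of *Hspa12a* (-0.27, adjusted p = 0.0995). The classic heat-inducible *Hspa1a* did not pass (late -0.09, adjusted p = 0.526, and early 0.03, adjusted p = 0.929), and its late pairs were -0.25, 0.03 and -0.05. Of the Hsp90 cochaperones, 5 of 15 had an unadjusted p under 0.05 (limma), against 18.4% of all genes. Only 1 of 15 was called, where 2.95% of all genes were, and it was *Ahsa2*, a relative of *Ahsa1* (-0.44 with SE 0.07, limma adjusted p = 0.0218). Its late pairs were -0.34, -0.46 and -0.51, and its adjusted p was 0.156 without the pair at 8 h and 0.0984 without that at 18 h. *Ppid*, the Hsp90-bound cyclophilin 40, had the largest late coefficient of that list (-0.58, adjusted p = 0.0953), with pairs of -0.14, -0.41 and -1.20.

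Among the remaining cytosolic and mitochondrial lists, none passed in the late pairs by limma: 0 of 17 J proteins (median 0.04, largest *Dnajb6*, 0.29), 0 of 10 nucleotide exchange factors and binding partners of Hsp70 (median 0.03, largest *Hspbap1*, -0.27), 0 of 8 small heat shock proteins (median 0.02, largest *Hspb7*, -0.32), 0 of 17 mitochondrial chaperones and proteases (median 0.01, largest *Grpel1*, 0.20), 0 of 14 subunits of the cytosolic chaperonin TRiC and prefoldin (median 0.08, largest *Cct8*, 0.25) and 0 of 6 heat shock factors and regulators (median -0.01, largest *Hsf2bp*, 0.21). At an unadjusted p under 0.05, they held 3, 2, 1, 4, 3 and 1 genes in the late pairs, in the order given. The share of all genes at that level was 18.4%. Of the 6 heat shock factors and regulators, only 2 had a mean above the median signal of all genes. *Hsf2bp* and *Dnajb6* had mean log2 values of 6.16 and 6.49. In the divergence of the courses, *Hspbap1* (-0.05 per time point, adjusted p = 0.0411) and *Hspb7*, a small heat shock protein (-0.06 per time point, adjusted p = 0.0253), passed. *Hspbap1* lost its call whichever pair was left out, and *Hspb7* lost it without the pair at 4, 8 or 18 h. In the late pairs their adjusted p was 0.0696 and 0.0563, and both were called there with dim genes left out or with the offset of 16. *Hspa1b*, *Hsp90ab1* and *Hsf1* had no value of their own. With the brightest clusters and values as deposited, the TRiC and prefoldin list had 2 of 14 genes below 0 late, against 10 of 10 for the members. Of the members, *Dnaja1* was above 0 in its own-chromosome cluster, and *Dnajb1* was with quantile normalisation or relative ranks.

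Endoplasmic reticulum chaperones fold secreted and membrane proteins. All 15 were below 0 in the late pairs, with a median of -0.23, and 46.5% of all genes were below 0. At an unadjusted p under 0.05 (limma) were 9 of 15, against 18.4% of all genes. Called lower were 5 of 15, where 2.95% of all genes were called: *Sdf2l1* (-0.63), *Creld2* (-0.51), *Hyou1* (-0.40), *Hspa5*, the Hsp70 of that compartment also called BiP (-0.29), and *Manf* (-0.27). Their limma adjusted p-values were between 0.00713 and 0.0413. None of the 5 was called without the pair at 8 h, only *Sdf2l1* was without that at 18 h, and *Hspa5* and *Manf* lost their calls whichever pair was left out. In divergence 4 of 15 passed (*Sdf2l1*, *Creld2*, *Hyou1* and *Hspa5*), against 2.83% of all genes. Each lost that call without the pair at 4, 8 or 18 h. *Sdf2l1* also passed in the trend at 32 °C (limma, -0.17 per time point, adjusted p = 0.0375), a call kept only when 2 h was the time left out. The shift of this list and that of the members was not tested against each other. *Cirbp*, the cold-inducible RNA-binding protein that marks cooling, rose by 1.58 on the log2 scale (SE 0.14, limma adjusted p = 0.00599), with late pairs of 1.24, 1.79 and 1.71, and its adjusted p was 0.0671 without the pair at 8 h. It also passed in the trend at 32 °C (limma, 0.34 per time point, adjusted p = 0.000311) and in divergence (0.29 per time point, adjusted p = 0.000982). The trend did not pass with hours (limma, adjusted p = 0.0588). By Kendall's tau the values of *Cirbp* at 32 °C were in fully ascending order (tau 1.0, the highest possible, exact test, adjusted p = 0.203). Since even this order did not pass, and 0 genes passed by tau at 32 °C, that test could not decide on the trend of *Cirbp*. *Rbm3*, the other cold-inducible RNA-binding protein gene, did not pass by limma in the late pairs, the trend at 32 °C or divergence (late mean 0.10).

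**Figure D4:**
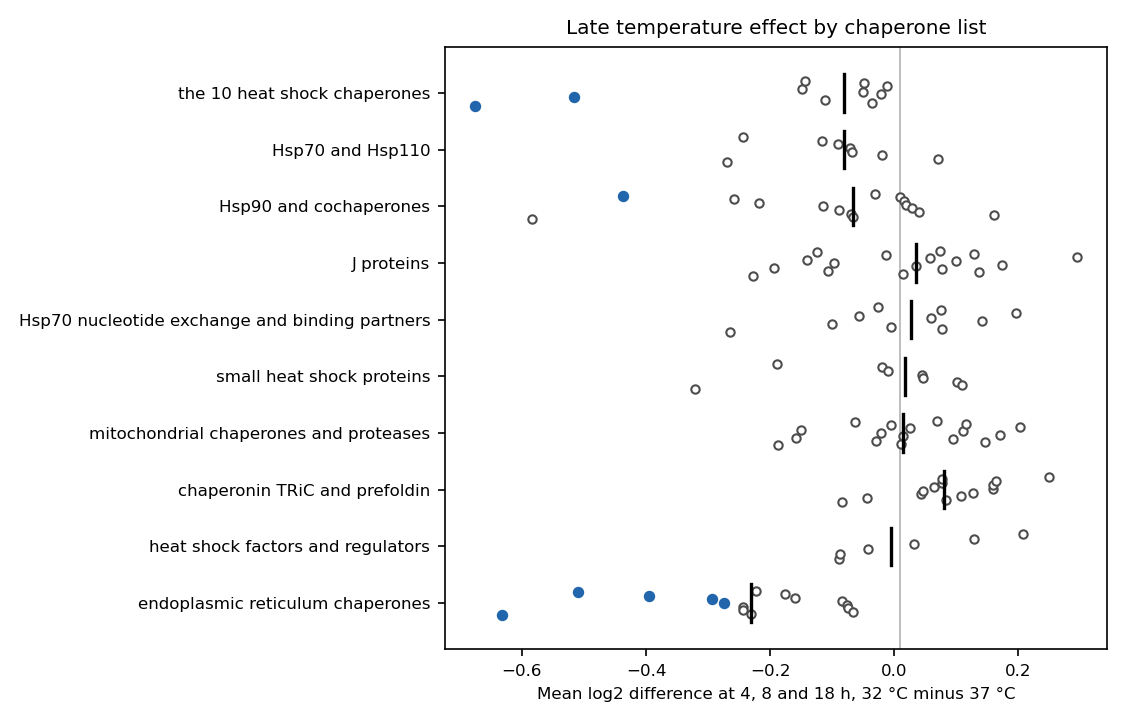
Mean log2 difference at 4, 8 and 18 h, 32 °C minus 37 °C (horizontal axis), of each gene in the chaperone lists (vertical axis). Filled circles passed the limma test, open ones did not, black bars are list medians and the grey line is the median of all genes, 0.01, with the 10 members at a median of -0.08 and the endoplasmic reticulum list at -0.23.

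The 3-unit motif was set beside these differences as a description. Of the 84 tested genes that hold it in a promoter window and are not members, 1 was called higher and 1 lower in the late pairs, or 2.38%, near the 2.95% of all genes, and their median was 0.02 against 0.01. Both members that fell late hold it, and so do *Hspd1* and *Hspe1*, which did not pass.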

How the data were processed

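The authors deposited a table of linear intensity with 28853 transcript clusters on 13 arrays. The sources used here do not say how probes were summarised and normalised. Values lay between 4.24 and 18146.4 and array medians within 0.046 on the log2 scale, so values were log2 transformed as deposited. Of the clusters, 21789 carried 1 gene symbol, 1621 carried several and were left out, and 19938 genes were tested, each through its brightest cluster. Clusters were named from GEO's platform annotation, with symbols updated through Entrez identifiers in RefSeq.

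limma 3.58.1 (lmFit, eBayes) in R 4.3.3 was fitted to all genes, with time point as a block for comparisons between temperatures, and 2-sided p-values were adjusted by the method of Benjamini and Hochberg (threshold 0.05). Early and late differences were fitted together over 12 arrays and share 1 estimate of spread, for which pairs of arrays at different times stand in for replicates. The fits were tested on simulated data. Kendall's tau was tested exactly with scipy 1.17.1, and figures were drawn with matplotlib 3.10.9 in Python 3.11.15. Named genes were the 10 members, list genes past the threshold, the gene with the largest late coefficient of each list and the 5 genes most like the members. *Hspa1a* was named after its values were seen. The members and lists were chosen with earlier results of these data known. Alternatives were quantile normalisation, relative ranks, a filter on dim genes, all clusters, an offset of 16, hours, a separate term for 32 °C, Kendall's tau, each time point left out and own-chromosome clusters. An own-chromosome cluster is one whose 20 nearest cluster identifiers, 10 on each side, are annotated mostly to genes of its chromosome. The hypoxia arrays and PCR measurements were not analysed here.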

Additional observations from a re-analysis of the deposited data

Results flagged for a closer look

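*Hsph1* was higher at 32 °C in all 3 early pairs (0.06, 0.14 and 0.13 on the log2 scale) and lower in all 3 late pairs (-0.11, -0.65 and -0.78). The late mean minus the early mean was -0.63, and the limma test of this change did not pass over all genes (adjusted p = 0.216). *Ahsa1* turned in the same way, with early pairs of 0.14, 0.07 and 0.26 and late pairs of -0.04, -0.14 and -0.26. Its late mean minus early mean was -0.30, which did not pass either (limma, adjusted p = 0.297).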

How the results depend on the processing

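With 1 array per condition, pairs of arrays at different times stand in for replicates, and no detection calls were used. Over the settings tried, own-chromosome clusters included, which were chosen after seeing the data, the late call of *Chordc1* was lost under relative ranks (adjusted p = 0.0600) and without 8 h, and that of *Hsph1* under relative ranks (0.126) and without 5 of 6 pairs. The divergence of *Chordc1* did not pass with relative ranks, hours or a separate term for 32 °C (0.0781, 0.0986 and 0.324), whereas that of *Hsph1* passed with hours (0.0254). The members called were 0 under relative ranks for late and divergence, 0 with the separate term, and 1 for the trend at 32 °C (*Hsph1*) with quantile normalisation, bright genes alone or hours. With 1 time left out, 0 to 2 were called late and 0 to 1 in divergence. Over all genes, the trend at 32 °C called 52 with quantile normalisation, 2 with relative ranks, 211 among bright genes, 5 with the offset, 381 with hours, 0 with Kendall's tau and 2 to 23 with 1 time left out. Divergence called 167, 357 and 4 (relative ranks, hours, separate term) and 40 to 627, and the late difference 0 (relative ranks) and 0 to 490. The causes were not tested.

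Of 726 member values, 51 turned in sign, none of them called. Below, values under relative ranks are points on a scale from 0 to 100 and not log2 units. Slopes and divergence with hours are in log2 per hour, and otherwise in log2 per time point. These units are not comparable in size. For the slope at 37 °C these were *Hspa8* (0.00036, 0.00087, 0.0111 and tau 0.238 with quantile normalisation, relative ranks, own-chromosome cluster and Kendall), *Hspe1* (0.00015, 0.00099, 0.00047 and 0.00199 with quantile normalisation, relative ranks, hours and own-chromosome cluster), *Dnaja1* (-0.00099 with hours) and *Ahsa1* (0.00294 with hours, tau 0.143). The slope of *Hspa8* at 32 °C was 0.00446 in its own-chromosome cluster. Divergence with the separate term was 0.00148 for *Hspa8*, 0.0291 for *Hsp90aa1*, 0.0562 for *Dnaja1* and -0.0520 for *Dnajb1*. It was 0.00976 for *Dnaja1* in its own-chromosome cluster and -0.00493 for *Dnajb1* with hours. Early means were 0.00499 and 0.00924 for *Hspa8* and -0.0185 and -0.110 for *Hspe1* (quantile normalisation, relative ranks). Late means were 0.0781 for *Dnaja1* (own-chromosome cluster) and 0.00401 and 0.0370 for *Dnajb1* (quantile normalisation, relative ranks). With 1 time left out, ranges that crossed 0 were, for the slope at 37 °C, *Ahsa1* -0.0166 to 0.0188, *Dnaja1* -0.00402 to 0.0113, *Hspa4l* -0.0283 to 0.00159, *Hspa8* -0.00188 to 0.00256, *Hspd1* -0.0108 to 0.00237, *Hspe1* -0.0101 to 0.0127 and *Hsph1* -0.0285 to 0.00329. For the slope at 32 °C they were *Hsp90aa1* -0.0193 to 0.0237, *Hspa4l* -0.0560 to 0.00067, *Hspa8* -0.00336 to 0.00138 and *Hspe1* -0.0162 to 0.0142. For divergence they were *Ahsa1* -0.0265 to 0.00365, *Dnajb1* -0.00658 to 0.0214 and *Hspe1* -0.00755 to 0.0116. For the early mean they were *Chordc1* -0.114 to 0.0107, *Hspd1* -0.0315 to 0.0129 and *Hspe1* -0.0587 to 0.0686, and for the late mean *Dnaja1* -0.0999 to 0.00654, *Dnajb1* -0.100 to 0.0341 and *Hspe1* -0.0462 to 0.0538.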

Other observations

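*Chordc1* and *Hsph1* reached their late difference at different times. At 4 h *Chordc1* was -0.80 and *Hsph1* -0.11 from 37 °C on the log2 scale, and at 18 h they were -0.55 and -0.78. With 1 array per condition the difference between both courses was not tested.

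*Hspb1*, a small heat shock protein, and *Bag3*, a partner of Hsp70, are textbook targets of heat shock factor 1 and were chosen after values had been seen. Neither passed in the late pairs (limma, *Hspb1* -0.01, adjusted p = 0.958, and *Bag3* -0.06, adjusted p = 0.744). The early pairs of *Hspb1* were 0.16, 0.12 and 0.06, and their mean did not pass either (limma, 0.11, adjusted p = 0.727).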
